A study of Mus musculus with 27 samples.

Results

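The genes described here are the 10 that make and control the kinase driving cells into mitosis: the A and B cyclins Ccna2, Ccnb1 and Ccnb2, the related Ccnf, the kinase Cdk1, the phosphatases Cdc25a, Cdc25b and Cdc25c, and the kinases Wee1 and Pkmyt1. They are listed by symbol, with no threshold on their values, and all 10 were found among the 24062 gene symbols of the count table. RNA was sequenced from 27 samples of C57BL/6 mice in 9 groups of 3 libraries. Mouse embryonic fibroblasts (primary connective-tissue cells cultured from embryos) were sequenced in 2 experiments. The groups of experiment 1 bear the labels WT, KO and KO-NTD, and those of experiment 2 the labels WT, WT-NTD, Het and Het-NTD. The fibroblasts were of early passage, divided without synchronisation and were taken at about 90% confluence. The remaining groups were whole lungs labelled WT or Het, from animals aged 10 days. The study's title names FoxM1, a forkhead transcription factor. Which part of the gene was altered, what NTD stands for, and whether the 3 libraries of a group are separate embryos or cultures are not stated in the labels. All groups share the strain. Because it is not stated what the 3 libraries of a group are, the tests see only how far these libraries scatter. That scatter may be technical.

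Cdk1 is active only when bound to a cyclin. Cyclin A and the B cyclins accumulate as cells approach division, bind Cdk1 and are destroyed during mitosis, so their transcripts are abundant in dividing tissue and scarce in resting tissue. Wee1 and Myt1 (the product of Pkmyt1) hold the assembled kinase inactive by phosphorylating Cdk1, and the Cdc25 phosphatases remove those phosphates at mitotic entry. Cyclin F is a relative that does not activate a Cdk but serves as the substrate receptor of a ubiquitin ligase. FoxM1 is known for activating genes of this kind in late cell cycle, together with B-Myb and the MuvB complex, which binds promoters at the cell cycle genes homology region (CHR).

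On GRCm38, with GENCODE M21 gene models, Ccnb1 lies on the minus strand at chr13:100778650-100786570, Ccnb2 on the minus strand at chr9:70407692-70421547 and Ccna2 on the minus strand at chr3:36564865-36572150. Ccnf lies on the minus strand at chr17:24222198-24251484, and Cdk1 on the minus strand at chr10:69335146-69352938. Cdc25a occupies the plus strand at chr9:109875579-109893895, Cdc25b the plus strand at chr2:131186949-131198497, Wee1 the plus strand at chr7:110122046-110143286, and Pkmyt1 the plus strand at chr17:23726336-23736735. Some of their exons overlap those of a gene on the other strand, and the library kit does not mark strand, so such reads cannot be assigned: Cdc25c shares 623 exon bases with Gm3550, Ccna2 shares 510 with Exosc9, Pkmyt1 shares 319 with Paqr4, and Cdc25b shares 92 with Spef1.

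Promoters for 6 of the 10 genes were found in a RefSeq table of GRCm38.p6, which gives 250 bases before to 50 after each start. The 6 were Ccnb1, Ccnb2, Ccnf, Cdk1, Cdc25a and Cdc25b. The sequences are shown because the genes that fell in the fibroblast comparisons include most of them and because the CHR letters are where the FoxM1 partner complex is known to bind. Both strands were searched for the CHR letters TTTGAA and for 2 variants of them, TTCGAA and the palindrome TTTAAA. At least 1 of these hexamers was present in 5 of the 6, against 28.8% of all 32851 promoters in the table. Each line below is a window of 30 bases on GRCm38.p6, read 5′ to 3′ along the gene's strand, with the hexamer nearest the start in capitals.
Ccnb1: agcggcccggggTTTAAAcctaagcccggc
Ccnb2: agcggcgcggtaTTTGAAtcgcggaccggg
Ccnf: gctcccggcgcgTTTGAAaacggggcgggg
Cdc25b: ccgctgttatttTTCGAAtatataaggagg
Cdk1: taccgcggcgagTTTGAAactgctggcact
The windows stand at chr13:100786511-100786540 for Ccnb1, chr9:70421533-70421562 for Ccnb2, chr17:24251406-24251435 for Ccnf, chr2:131186943-131186972 for Cdc25b and chr10:69352910-69352939 for Cdk1. Counted from the RefSeq start, the hexamer begins 42 bases upstream in Ccnb1, 14 bases upstream in Ccnf and 15 bases upstream in Cdk1. It lies just inside the RefSeq transcript in Ccnb2 and Cdc25b. The RefSeq starts differ from the edges of the GENCODE gene models given above. By those models the hexamers of Ccnb1, Ccnf and Cdk1 lie inside the gene, and that of Ccnb2 crosses its edge. Cdc25b holds the rarest of the 3 spellings, TTCGAA, which 1.56% of all promoters hold. TTTGAA occurs in 17.9% and TTTAAA in 13.2% of them. Cdc25a held none of the 3 hexamers in this window.

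The CCAAT box, searched as CCAAT or ATTGG, is often found upstream of a CHR in promoters of this class. It was present in 6 of the 6 promoters and in 37.4% of all promoters. The upstream stretches of the cyclin Ccnb1, the phosphatase Cdc25b and the kinase Cdk1 are printed next because these 3 genes differ in how far they fell, from the outer end of the promoter to the last base before any annotated exon. Capitals mark a CCAAT box on either strand, a CHR hexamer or the E2F letters TTTCGCGC.
Ccnb1: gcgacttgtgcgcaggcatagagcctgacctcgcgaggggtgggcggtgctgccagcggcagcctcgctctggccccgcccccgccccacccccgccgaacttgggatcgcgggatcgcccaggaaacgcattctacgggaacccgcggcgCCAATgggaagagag
Cdc25b: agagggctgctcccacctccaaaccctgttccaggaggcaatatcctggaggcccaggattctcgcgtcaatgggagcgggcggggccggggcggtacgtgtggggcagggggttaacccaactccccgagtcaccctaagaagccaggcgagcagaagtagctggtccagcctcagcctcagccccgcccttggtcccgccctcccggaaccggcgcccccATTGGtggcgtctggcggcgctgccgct
Cdk1: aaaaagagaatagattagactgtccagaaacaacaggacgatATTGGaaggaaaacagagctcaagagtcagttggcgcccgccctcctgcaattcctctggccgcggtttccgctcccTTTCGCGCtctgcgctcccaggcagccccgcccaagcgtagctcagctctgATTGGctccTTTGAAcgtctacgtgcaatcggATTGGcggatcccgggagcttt
These stretches cover chr13:100786571-100786736 (minus strand), chr2:131186698-131186947 (plus strand) and chr10:69352939-69353162 (minus strand) of GRCm38.p6. Cdk1 carries 3 CCAAT boxes and the E2F letters TTTCGCGC, which 0.323% of all promoters hold. Cdc25a carries the related letters TTTGGCGC, held by 0.514% of promoters. The forkhead letters TGTTTAC were in none of the 6 promoters and in 3.65% of all promoters, and the shorter TGTTTA was found in Ccnb1 and in 13.4% of all promoters. A match of letters is a description of these windows and not a binding site.

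Each library held between 29730693 and 69517834 counted reads, and the 10 genes had between 472 and 10688 reads each in the fibroblast libraries and between 59 and 2209 in the lung libraries. Foxm1 itself checks the labels only in part, since its counts cover the whole gene. In CPM, the read count scaled to the size of the library, it stood at 136 ± 3.34 in WT and 146 ± 6.64 in the libraries labelled KO (mean ± SD, n = 3 each), and the ratio of 1.07 (95% interval 0.973 to 1.19) did not pass the edgeR test (adjusted p = 0.565). In experiment 2 it stood at 147 ± 1.99 in WT and 129 ± 2.63 in Het (ratio 0.881, 0.755 to 1.03), and in lung at 19.2 ± 1.08 and 18.4 ± 1.55 (ratio 0.961, 0.785 to 1.18). Each Het fibroblast library lay below each WT library of experiment 2, but the difference did not pass (edgeR adjusted p = 0.249), and the libraries labelled KO were not lower. KO and Het are used throughout as the names of labels. Every NTD group was higher in Foxm1 than its partner, with 362 ± 28.2 CPM in KO-NTD, 346 ± 56.9 in WT-NTD and 347 ± 34.4 in Het-NTD. All 10 fibroblast markers were present in every fibroblast group, at 32510 to 48930 CPM summed per library. The lungs held 24980 to 50280 CPM of 12 epithelial markers, against 17.17 to 34.71 in fibroblasts. The hemoglobin genes Hba-a1, Hba-a2, Hbb-bs and Hbb-bt were listed at 0 in the table, lungs included.

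Read depth per kilobase of exon puts the 10 genes on a common scale (CPM per kb, all 27 libraries scaled together). In fibroblasts the upper tier was formed by Ccnb2, Ccna2, Ccnb1 and Cdk1, and the lower by the other 6. In WT fibroblasts of experiment 2 the levels were 53.1 ± 1.09 CPM per kb for Ccnb2, 40.7 ± 2.24 for Ccnb1, 39.3 ± 1.08 for Ccna2 and 35.9 ± 0.872 for Cdk1 (SD, n = 3). Cdc25b followed at 16 ± 1.24, ahead of Wee1 at 9.06 ± 0.344, Ccnf at 8.95 ± 0.377, Pkmyt1 at 8.72 ± 0.164 and Cdc25a at 5.89 ± 0.54. Among these, Ccnb1 and Ccna2 overlapped in their libraries, as did Wee1, Ccnf and Pkmyt1. Cdc25c was lowest in each of the 9 groups, at 4.17 ± 0.19 in the same WT group, and Ccnb2 was highest in each of the 9. Of the 3 phosphatases, then, Cdc25b had the most RNA per length in WT fibroblasts and Cdc25c the least.

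**Figure D1:**
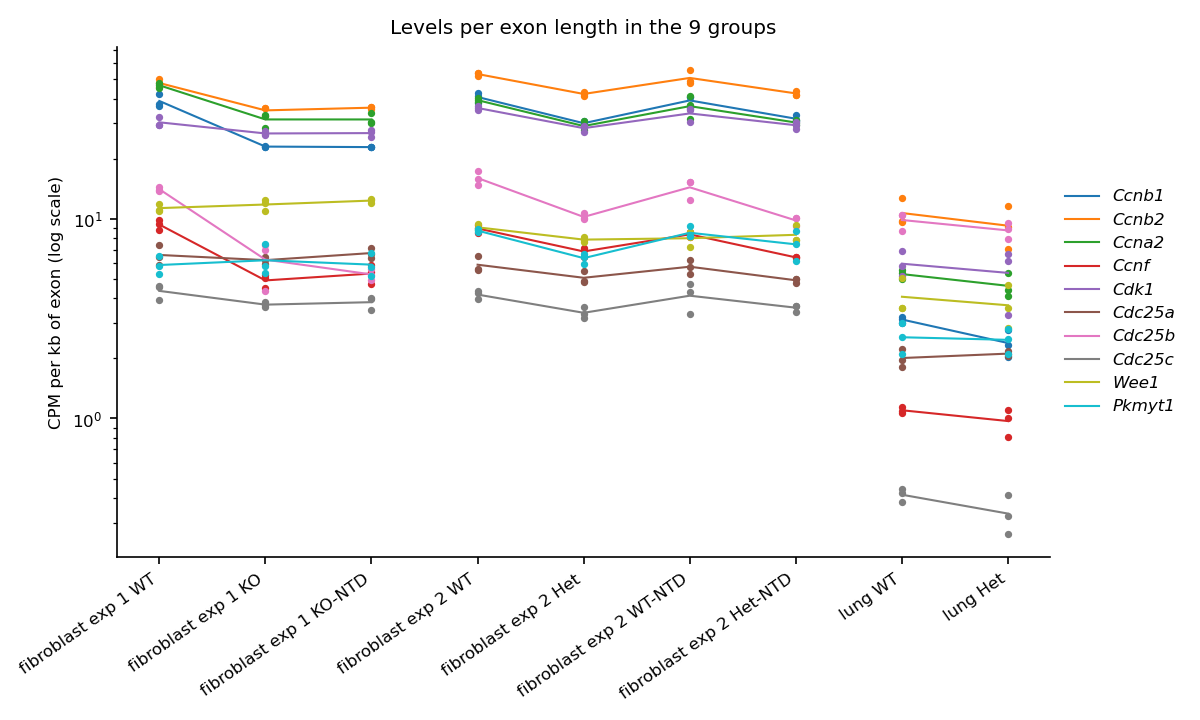
Level of each gene in CPM per kb of exon (vertical axis, log scale) in the 9 groups (horizontal axis); points are single libraries and lines join group means within an experiment or tissue. Ccnb2 is highest and Cdc25c lowest in every group, Cdc25b falls from 14.1 CPM per kb in WT to 6.24 in KO of experiment 1, and all 10 genes lie lower in the WT lung than in WT fibroblasts.

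The comparison of KO with WT fibroblasts asks what the libraries labelled KO differ in. The cyclins were the genes that fell. Ccnb1, Ccnb2, Ccna2 and Ccnf were lower in KO, and so was the phosphatase Cdc25b, while Cdk1, Cdc25a, Cdc25c, Wee1 and Pkmyt1 did not pass the test. That made 5 of 10 genes lower and 0 higher (edgeR adjusted p under 0.05 over 14551 genes), against 0.323% of all tested genes called lower and 0.124% called higher. DESeq2 also called 5, and 3.43% of all genes in either direction. In 7 of the 10 every KO library lay below every WT library, as in 8.87% of all genes tested. The median log2 change was -0.32 over the 10 genes and 0.01 over all genes tested. In bulk RNA, fewer cells in the late cell cycle and less RNA per cell cannot be told apart.

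Ccnb1, which encodes the main mitotic partner of Cdk1, stood at 143, 163 and 145 CPM in the WT libraries 1 to 3 and at 90.3, 89.9 and 90.7 in the KO libraries. The groups lay far apart, and the KO libraries differed among themselves by less than 1 CPM. The log2 change was -0.74 ± 0.05 (SE), a ratio of 0.6 with a 95% interval of 0.553 to 0.652 (edgeR adjusted p = 0.000866). Ccnb2, the second B cyclin, read 64.6, 66.8 and 70.2 CPM in WT and 46.7, 51.2 and 51.5 in KO. Its ratio was nearer to 1 than that of Ccnb1, at 0.741 (0.681 to 0.807, edgeR adjusted p = 0.0127). Ccna2, whose product pairs with Cdk2 in S phase and with Cdk1 later, read 171, 178 and 175 CPM in WT and 108, 126 and 125 in KO, again without overlap. Its ratio was 0.686 (0.611 to 0.769, edgeR adjusted p = 0.0188).

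Ccnf had the lowest ratio of the 4 cyclins. Its libraries read 67.4, 70.6 and 62.8 CPM in WT and 37.8, 36.5 and 32.8 in KO, so the highest KO library stood well under the lowest WT library. The log2 change was -0.91 ± 0.09 (SE), a ratio of 0.533 (0.465 to 0.611, edgeR adjusted p = 0.00359). Cdk1 itself read 135, 145 and 133 CPM in WT and 121, 126 and 122 in KO. These groups did not overlap either, but the gap was small and the ratio of 0.894 (0.822 to 0.972) did not pass (edgeR adjusted p = 0.281).

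Among the phosphatases, Cdc25b, which is known to act early in mitotic entry, had the largest log2 change of all 10 genes. It read 49.9, 47 and 47.3 CPM in WT and 15.1, 25.5 and 24.5 in KO. The 3 WT libraries were close together and KO library 1 lay below its 2 partners. The log2 change was -1.15 ± 0.17 (SE), a ratio of 0.452 (0.343 to 0.596, edgeR adjusted p = 0.0369). Cdc25a, the phosphatase that also serves entry into S phase, read 48.5 ± 5.65 CPM in WT and 46.4 ± 1.61 in KO, with overlapping libraries and a ratio of 0.956 (0.84 to 1.09, edgeR adjusted p = 0.808). Cdc25c read 19.6 ± 1.64 and 17 ± 0.539 CPM, without overlap, and its ratio of 0.867 (0.761 to 0.988) did not pass (edgeR adjusted p = 0.369).

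The kinases that oppose Cdc25 had ratios on the other side of 1. Wee1 read 35.1, 36.9 and 34.4 CPM in WT and 34.5, 38.3 and 39.9 in KO, and Pkmyt1 read 19.5, 21.7 and 17.6 in WT and 18.1, 25.2 and 19.8 in KO. Both pairs of groups overlapped. The ratio was 1.06 (0.961 to 1.17) for Wee1 and 1.07 (0.856 to 1.35) for Pkmyt1, and neither passed the edgeR test (adjusted p = 0.64 and 0.824).

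**Figure D2:**
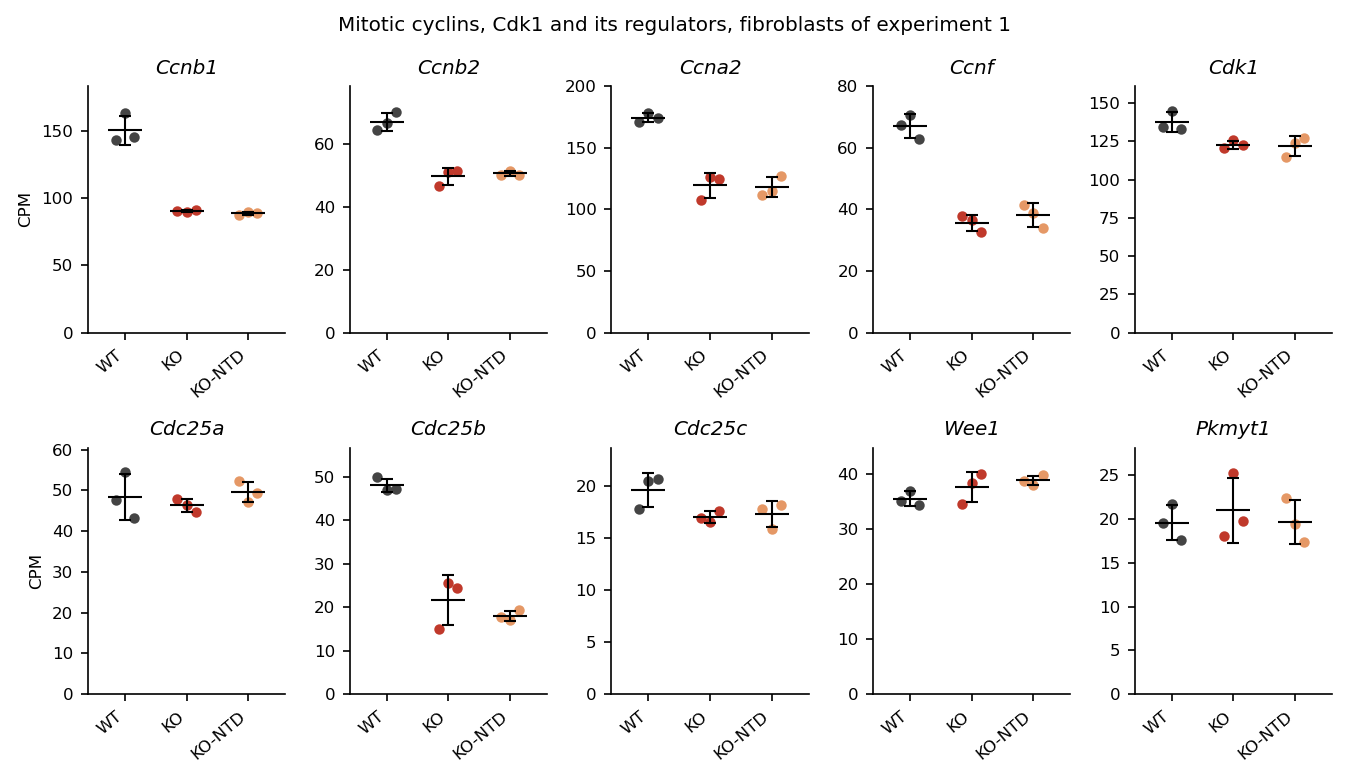
CPM (vertical axis, from 0) of the 10 genes in the WT, KO and KO-NTD fibroblast libraries of experiment 1 (horizontal axis); points are libraries, horizontal lines the mean of 3 and bars 1 SD. Ccnb1, Ccnb2, Ccna2, Ccnf and Cdc25b lie lower in KO and KO-NTD than in WT without overlap, while Cdc25a, Wee1 and Pkmyt1 overlap between WT and KO.

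Ccnb1 and Ccnf passed the edgeR test when any of the 6 libraries was left out. Cdc25b did not pass without WT 1, 2 or 3 or KO 2 or 3 (adjusted p between 0.0789 and 0.151), Ccna2 did not without WT 1, 2 or 3 or KO 2 (0.0573 to 0.0763), and Ccnb2 did not without WT 2 or KO 2 (0.0527 and 0.0573). When the KO-NTD libraries were left out of the fit, Ccnb1 and Ccnf alone passed. Markers of macrophages, cells that fibroblast cultures can hold, varied between these libraries: their summed level was 67.26 to 113.2 CPM in WT and 14.48 to 445 CPM in KO, with 0 of 14 tested markers called in edgeR (1 at an unadjusted p under 0.05, 0 in DESeq2) and none of the 15 at 0. KO library 1, the lowest for Cdc25b, was also the lowest for these markers. With a macrophage score as a covariate, the log2 changes were -0.73 for Ccnb1 and -1.21 for Cdc25b, and 5 of 10 genes passed. In that fit 3.04% of all genes were called in either direction.

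Most other listed genes of the pathway did not pass the test, and the counts are to be read against the 0.323% of all genes called lower. Of 16 other cyclins and Cdk partners, 0 were called in edgeR (2 at an unadjusted p under 0.05, 0 in DESeq2). Of 22 genes of the kinases and checkpoint upstream of Cdc25 and Wee1, 1 fell: Sfn, which encodes the 14-3-3 sigma protein that binds Cdk regulators, at a log2 change of -2.12 (adjusted p = 0.0308 in edgeR). Cdc20, the activator of the ubiquitin ligase that destroys mitotic cyclins, was the 1 gene of 28 in the degradation list that fell, at -0.30 (edgeR adjusted p = 0.0305). Of 23 genes for targets of mitotic phosphorylation at entry and exit, 4 fell, among them the centrosomal kinase Nek2 at -1.41, the centromeric protein Cenpf at -1.41 and the centromeric histone Cenpa at -0.99 (edgeR adjusted p between 0.000442 and 0.00141). In the lists of FoxM1, B-Myb and MuvB genes (21) and of proliferation and G1/S genes (23), 0 were called in edgeR (3 and 3 at an unadjusted p under 0.05, 0 and 1 in DESeq2), and the 11 genes of Greatwall and its phosphatase had 0 (0 and 0). The lists' median log2 changes ran from -0.05 to -0.02.

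KO-NTD fibroblasts carried the label KO together with NTD, and their Foxm1 count was 2.47 times that of KO. In edgeR 0 of the 10 genes were called against KO, with 0 at an unadjusted p under 0.05 and 0 in DESeq2, and 0.00687% of all genes were called, the single gene being Foxm1. Ccnb1 read 87.6, 89.3 and 88.9 CPM in KO-NTD, Ccnf 41.5, 38.8 and 34 and Cdc25b 17.8, 17 and 19.4. The Ccnb1 libraries sat just under those of KO, with a ratio of 0.981 (0.904 to 1.06). For Cdc25b the ratio was 0.831, with an interval of 0.63 to 1.1 (edgeR adjusted p = 0.724). Without KO library 1, Cdc25b was called lower in KO-NTD, at a log2 change of -0.47 (edgeR adjusted p = 0.0463).

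Against WT, which is the same control group as for KO, 5 of 10 genes were lower in KO-NTD and 0 higher, where 0.378% of all genes were called lower and 0.0619% higher. They were Ccnb1 at a log2 change of -0.76, Ccnb2 at -0.41, Ccna2 at -0.56, Ccnf at -0.81 and Cdc25b at -1.41 (edgeR adjusted p = 0.000458, 0.0139, 0.0128, 0.00515 and 0.0124). DESeq2 called 5 as well, and 2.76% of all genes in either direction. Wee1 read 38.7, 37.9 and 39.7 CPM, each above the highest WT library, with a ratio of 1.09 (0.992 to 1.21) that did not pass (edgeR adjusted p = 0.443). Without 1 of the 6 libraries, between 2 and 4 genes passed, in runs whose share of all genes called is not given here. Ccnb1 and Ccnf were among them each time, Ccnb2 passed only without WT 1, and Cdc25b and Ccna2 passed only without KO-NTD 3. Ccnb2 had an edgeR adjusted p of 0.0702 at its highest, Ccna2 of 0.0721 and Cdc25b of 0.0766. The macrophage markers ran from 11.58 to 325.7 CPM in KO-NTD, and with the score as a covariate 5 of 10 passed. In that fit 1.81% of all genes were called in either direction.

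In experiment 2 the libraries labelled Het were compared with WT. All 10 genes lay lower in Het than in WT without overlap between libraries, as did 16.8% of all genes tested, and 7 passed the edgeR test: Ccnb1, Ccnb2, Ccna2, Ccnf, Cdk1, Cdc25b and Pkmyt1. None was higher. Many genes changed in this comparison, with 8.61% of the 14314 tested called lower and 7.89% called higher. The median log2 change was -0.36 over the 10 genes and 0.01 over all. Each of the 10 had an unadjusted p under 0.05, a cutoff at which the share of all genes is not given here. DESeq2 called 9, and 20.2% of all genes in either direction.

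Cdc25b again had the lowest ratio. It read 53, 62.1 and 57 CPM in WT and 36.1, 38.4 and 35.6 in Het. The Het libraries spanned less than 3 CPM and lay well under the lowest WT value. The log2 change was -0.64 ± 0.08 (SE), a ratio of 0.64 (0.565 to 0.725, edgeR adjusted p = 0.000466). Cdc25a, at 42.6, 43.5 and 50.3 CPM in WT and 37.8, 37.6 and 42.1 in Het, came within 1 CPM of overlapping. Its ratio was 0.861 (0.77 to 0.964, edgeR adjusted p = 0.068), and DESeq2 gave an adjusted p of 0.0482. Cdc25c read 18.7, 20.5 and 20 CPM in WT and 15, 17.3 and 15.8 in Het, with a ratio of 0.812 (0.691 to 0.953, edgeR adjusted p = 0.0738, DESeq2 adjusted p = 0.0448).

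All 4 cyclins fell. Ccnb1 read 155, 168 and 173 CPM in WT and 120, 126 and 120 in Het, a ratio of 0.74 (0.679 to 0.807, edgeR adjusted p = 0.000546). Ccna2 read 150, 159 and 154 CPM in WT and 109, 122 and 113 in Het, a ratio of 0.743 (0.659 to 0.838, edgeR adjusted p = 0.00441). Ccnf had 63.8, 69.8 and 67.8 CPM in WT and 52.2, 54.1 and 48.4 in Het, a ratio of 0.768 (0.713 to 0.827, edgeR adjusted p = 0.000493). Ccnb2 differed least of the 4, with 78.2 ± 1.82 CPM in WT, 62.2 ± 1.35 in Het and a ratio of 0.796 (0.735 to 0.862, edgeR adjusted p = 0.00195). The intervals of the 4 ratios overlap each other.

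Cdk1 fell in Het, with 166, 171 and 175 CPM in WT and 129, 139 and 137 in Het. The ratio was 0.794 (0.729 to 0.864, edgeR adjusted p = 0.00246), close to that of its cyclin partner Ccnb2. Of the inhibitory kinases, Pkmyt1 fell from 30.9, 30.9 and 29.9 CPM in WT to 20.9, 23.5 and 22.4 in Het, a ratio of 0.729 (0.623 to 0.853, edgeR adjusted p = 0.0121). Wee1 read 28.6, 31.1 and 29.7 CPM in WT and 25.2, 25.9 and 26.6 in Het, and its ratio of 0.869 (0.77 to 0.98) did not pass (edgeR adjusted p = 0.105). Paqr4, whose exons overlap Pkmyt1, and Spef1, whose exons overlap Cdc25b, did not pass in this comparison, at log2 changes of -0.15 and -0.22.

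**Figure D3:**
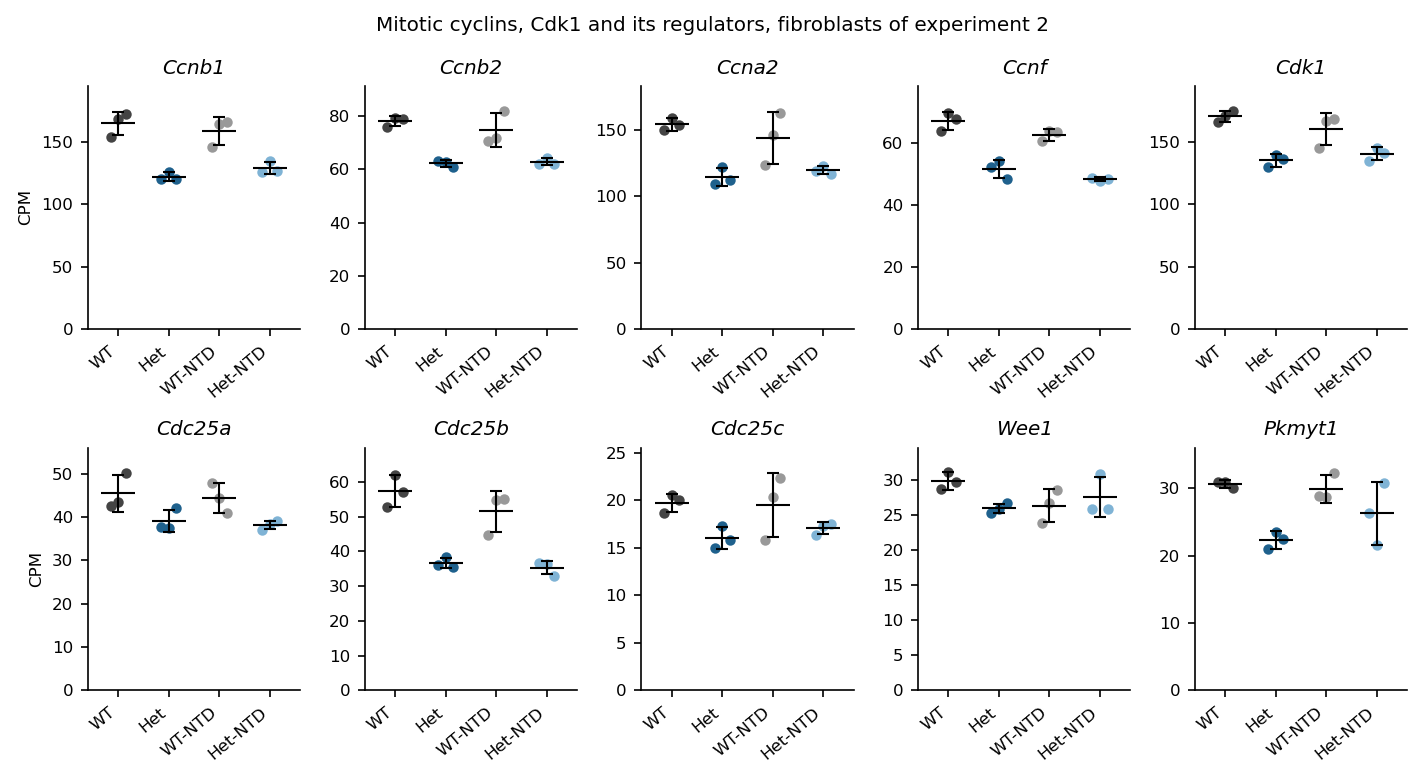
CPM (vertical axis, from 0) of the 10 genes in the WT, Het, WT-NTD and Het-NTD fibroblast libraries of experiment 2 (horizontal axis); points are libraries, horizontal lines the mean of 3 and bars 1 SD. Every Het library lies under every WT library for all 10 genes (16.8% of all genes), and Het-NTD lies under WT-NTD for 7 of them (15.8% of all genes).

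Among the gene lists, the counts in Het are to be read against the 8.61% of all genes called lower and the 7.89% called higher. Of 23 proliferation and G1/S genes 13 fell and 0 rose, with the ribonucleotide reductase subunit Rrm2 at a log2 change of -0.48, the replicative helicase subunit Mcm5 at -0.37 and the DNA methylation factor Uhrf1 at -0.27. Of the 23 genes of mitotic entry and exit 13 fell and 0 rose, among them Nek2 at -0.60, the spindle motor Kif11 at -0.51 and the cytokinesis protein Anln at -0.31. The median log2 change was -0.21 and -0.27 in these lists. The other lists had shares called lower nearer to that of all genes. Of 16 other cyclins and Cdk partners 3 fell (Ccnd1 at -0.55, Ccnd3 at -0.22 and Cks2 at -0.20), and of the 21 FoxM1, B-Myb and MuvB genes 4 fell, with B-Myb (Mybl2) at -0.37, E2f2 at -0.71 and E2f8 at -0.28. In the list upstream of Cdc25 and Wee1, 2 of 22 fell and 1 rose: Plk1, the kinase that activates Cdc25 and marks Wee1 for destruction, at -0.53, Aurka at -0.16 and the 14-3-3 gene Ywhag at 0.40. In the degradation list 3 of 28 fell, including Cdc20 at -0.41 and the ubiquitin-conjugating Ube2c at -0.34, and Usp13 rose by 0.45. Ppp2r2b, a subunit of the phosphatase that opposes Cdk1, was the 1 of 10 Greatwall and phosphatase genes that fell, at -1.50.

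Macrophage markers moved with the label in experiment 2. Their summed level was 196.6 to 237.4 CPM in WT and 12.94 to 82.76 CPM in Het, with 10 of 14 tested markers called lower at a median log2 change of -2.42 and none of the 15 at 0. Fibroblast markers summed to 35880 to 45870 CPM in WT and 43950 to 47750 in Het, and 2 of 10 were called lower. The macrophage score lay between 3.18 and 3.46 in the WT libraries and between -0.81 and 1.99 in Het. A fit with both cannot fully tell the score from the label. With the macrophage score as a covariate, 5 of the 10 genes passed: Cdc25b at a log2 change of -0.83, Ccna2 at -0.65, Ccnb1 at -0.56, Cdk1 at -0.49 and Ccnf at -0.45. Ccnb2 at -0.34 and Pkmyt1 at -0.50 did not (edgeR adjusted p = 0.0844 and 0.189). In the same fit 10 of 23 genes of mitotic entry and exit and 2 of 23 proliferation and G1/S genes were called lower. Of all 14314 genes, that fit called 179 lower and 213 higher, or 2.74% in either direction. When 1 of the 6 libraries was left out, 7 or 8 genes passed, and Cdc25a joined without WT 1 (edgeR adjusted p = 0.0416). Shares of all genes called in these runs are not given here.

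NTD made no called difference to the 10 genes within either label. Between Het-NTD and Het, 0 of 10 were called in edgeR (1 at an unadjusted p under 0.05, 0 in DESeq2), where 0.014% of all genes were called. Ccnb1 read 126, 135 and 127 CPM in Het-NTD and Cdc25b 36.6, 36.5 and 33.1, which overlap the Het libraries, as did each of the 10 genes. The ratio was 1.06 (0.97 to 1.15) for Ccnb1 and 0.964 (0.851 to 1.09) for Cdc25b. Pkmyt1 had the largest difference, with 26.4, 21.5 and 30.8 CPM and a ratio of 1.18 (1 to 1.38, edgeR adjusted p = 0.79). Between WT-NTD and WT, 0 of 10 were called (1 at an unadjusted p under 0.05, 0 in DESeq2), where again 0.014% of all genes were called. All 10 log2 changes were below 0, from -0.18 for Wee1 to -0.02 for Cdc25c. Wee1 read 23.8, 26.7 and 28.5 CPM in WT-NTD, each under the lowest WT library, with a ratio of 0.883 (0.782 to 0.996, edgeR adjusted p = 0.673). The difference of the NTD effect between Het and WT was itself called for 0 of 10 genes, with 1 at an unadjusted p under 0.05 (Wee1, ratio 1.2, interval 1.01 to 1.43) and 0 in DESeq2. In that contrast 0% of all genes were called in edgeR, with 711 of 14314 at an unadjusted p under 0.05 and 4 called in DESeq2.

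Within NTD, the label Het went with lower cyclins and Cdc25b, as in the libraries without NTD. Comparing Het-NTD with WT-NTD, 5 of 10 genes fell and 0 rose, where 6.24% of all genes were called lower and 5.24% higher. In 7 of the 10 the Het-NTD libraries all lay below the WT-NTD libraries, as in 15.8% of all genes tested. Cdc25b fell by 0.55 on the log2 scale, from 44.8, 54.8 and 55.2 CPM to 36.6, 36.5 and 33.1 (ratio 0.685, 0.605 to 0.776, edgeR adjusted p = 0.00147). Ccnf went from 60.5, 64.1 and 63.6 CPM to 48.8, 47.7 and 48.5, with little spread within either group (ratio 0.77, 0.715 to 0.83, edgeR adjusted p = 0.000617). Ccnb1 had a ratio of 0.813 (0.746 to 0.887, edgeR adjusted p = 0.00608). Ccnb2 and Cdk1 had ratios of 0.84 and 0.877 (edgeR adjusted p = 0.0105 and 0.048). Ccna2 narrowly missed, with 123, 146 and 163 CPM in WT-NTD and 119, 123 and 117 in Het-NTD (ratio 0.831, edgeR adjusted p = 0.0507). WT-NTD library 1 was the lowest of its group for 8 of the 10 genes, all but Cdc25a and Pkmyt1.

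Without WT-NTD library 1, 7 genes passed, with Ccna2 (edgeR adjusted p = 0.00202) and Cdc25c (0.0254) added. Without Het-NTD library 1, Cdk1 and Ccnb2 did not pass (0.185 and 0.0511), and Cdk1 also failed without Het-NTD 2 or 3 or WT-NTD 2 or 3 (0.0839 to 0.168). Macrophage markers summed to 79.47 to 189.8 CPM in WT-NTD and 13.79 to 19.5 in Het-NTD, with 13 of 14 called lower and Cd163 at 0 in Het-NTD. With their score as a covariate 2 genes passed, Ccnf at -0.44 and Cdc25b at -0.74, where 1.19% of all genes were called in either direction. That score lay between 1.86 and 3.09 in WT-NTD and between -0.67 and -0.06 in Het-NTD. Score and label cannot be fully told apart here either. In the lists, 7 of 23 genes of mitotic entry and exit and 6 of 23 of proliferation and G1/S fell and 0 rose, and 4 of 16 other cyclins and partners fell, with Ccnd1 at -0.76 and Ccnd2 at -0.34. Usp13 rose by 0.55 and Ywhag by 0.28.

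In whole lung of 10-day-old animals, 0 of 10 genes were called between Het and WT in edgeR (1 at an unadjusted p under 0.05, 0 in DESeq2). Over all 15933 genes tested 0% were called, with 114 at an unadjusted p under 0.05 and 1 called in DESeq2. Ccnb1 was the gene with the unadjusted p under 0.05, and the only 1 of the 10 whose lung groups did not overlap. Het lay below WT without overlap in 2.28% of all genes tested in lung, and 1 gene of 10 is too few to read against that share. It read 15.3, 16.3 and 16.6 CPM in WT and 12.2, 14.3 and 10.2 in Het, a ratio of 0.762 (0.588 to 0.987, edgeR adjusted p = 1). That interval holds the ratio of 0.74 that Ccnb1 had in Het fibroblasts. Cdc25b read 47.3, 39.6 and 47.2 CPM in WT and 36.1, 40.2 and 42.3 in Het, with overlap and a ratio of 0.885 (0.722 to 1.08). Cdk1 read 30.8, 34.8 and 41.6 CPM in WT and 37.3, 39.9 and 19.3 in Het, so that Het library 3 stood apart from the other Het lungs. That library was also the lowest Het lung for Ccnb1, Ccnb2, Ccna2, Ccnf, Cdc25a, Cdc25c and Pkmyt1, but the highest for Cdc25b and Wee1. With any 1 of the 6 lungs left out, 0 of 10 genes were called.

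**Figure D4:**
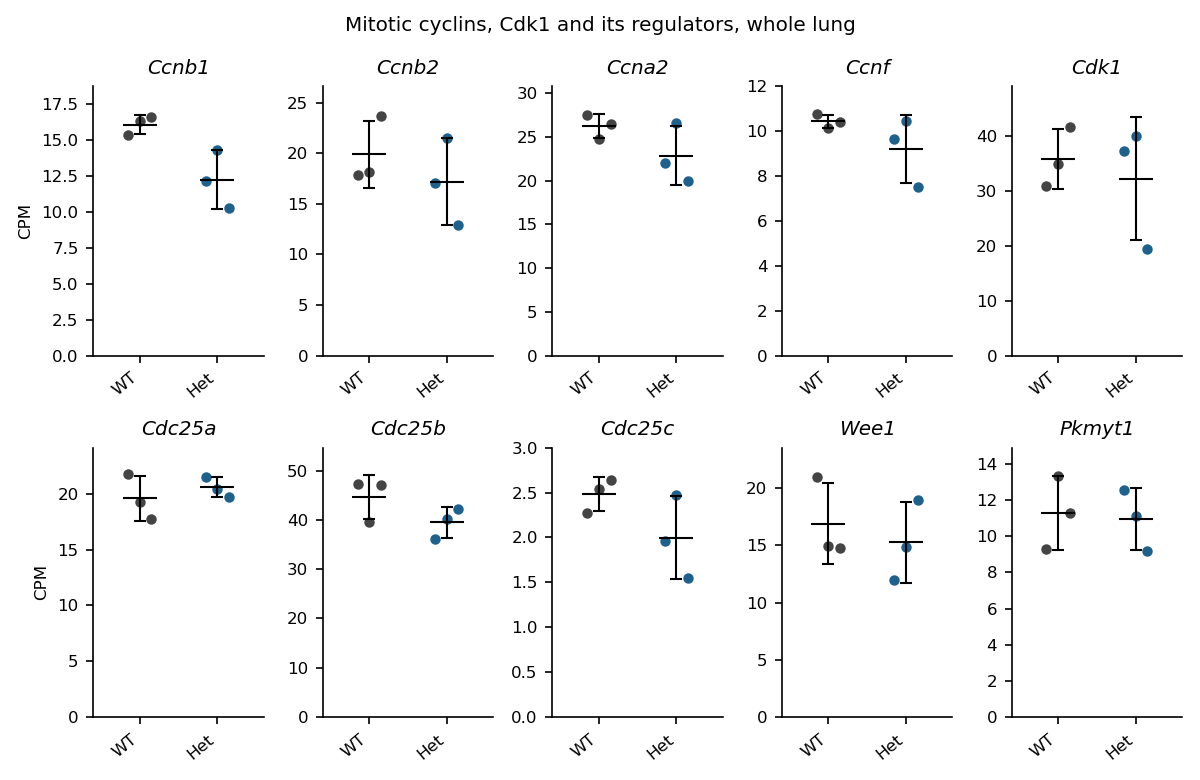
CPM (vertical axis, from 0) of the 10 genes in the WT and Het lung libraries (horizontal axis); points are libraries, horizontal lines the mean of 3 and bars 1 SD. Ccnb1 is the 1 gene without overlap, at 15.3 to 16.6 CPM in WT and 10.2 to 14.3 in Het (2.28% of all genes lie lower in Het without overlap). The third Het library is low for Cdk1 at 19.3 CPM.

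The log2 changes in lung were below 0 for 9 of the 10 genes, with Cdc25a at 0.07 the exception, and the median was -0.18 against 0.01 over all genes. The 95% intervals were wide: 0.577 to 1.41 for the ratio of Cdk1 and 0.523 to 1.24 for Cdc25c. The test of the difference between the Het effect in lung and in fibroblasts called 0 of 10 genes in edgeR (1 at an unadjusted p under 0.05, 1 called in DESeq2). Of all genes, 1.12% were called in edgeR and 4.59% in DESeq2. Cdc25b was nearest, with a Het ratio 1.39 times higher in lung (1.13 to 1.72, edgeR adjusted p = 0.142, DESeq2 adjusted p = 0.0448). For Ccnb1 the ratio of the effects was 1.04 (0.821 to 1.31). Macrophage markers summed to 1706 to 2186 CPM in WT and 1321 to 2082 in Het lungs, and 0 of 15 were called in edgeR (0 at an unadjusted p under 0.05, 0 in DESeq2).

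The KO effect of experiment 1 and the Het effect of experiment 2 were also compared directly. None of the 10 genes was called in edgeR, where 0.324% of all genes were called. An unadjusted p under 0.05 was found for 6 of the 10, and the share of all genes at that cutoff is not given here. Ccnf was nearest, with its ratio in KO 0.687 times that in Het (0.59 to 0.8, edgeR adjusted p = 0.055). Ccnb1 followed at 0.803 (0.708 to 0.91, adjusted p = 0.107 in edgeR) and Cdc25b at 0.698 (0.507 to 0.961, adjusted p = 0.246 in edgeR). The values of the inhibitory kinases were above 1, with Pkmyt1 at 1.46 (1.14 to 1.86, adjusted p = 0.138 in edgeR) and Wee1 at 1.21 (1.06 to 1.37, adjusted p = 0.15 in edgeR). DESeq2 called 3 of the 10, with Ccnf and Ccnb1 lower and Pkmyt1 higher (adjusted p = 0.000332, 0.0241 and 0.0462). It called 5.02% of all genes in this contrast. Without KO library 1, edgeR called 5: Ccnf, Ccnb1 and Cdc25b lower (0.0045, 0.0402 and 0.0482) and Pkmyt1 and Wee1 higher (0.0191 and 0.0227). The share of all genes called in that run is not given here. Each effect was taken against the WT libraries of its own experiment, and any other difference between the experiments cannot be told apart from the label. Of the 23 genes of mitotic entry and exit, 2 had a higher and 3 a lower value in this contrast, with a list median of 0.17, and the lower ones were Nek2 at -0.82, Cenpf at -1.03 and Cenpa at -0.65 (edgeR adjusted p = 0.0186, 0.0186 and 0.0163). Plk1 at 0.46 and Rrm2 at 0.60 were higher (edgeR adjusted p = 0.0186 and 0.0261).

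**Figure D5:**
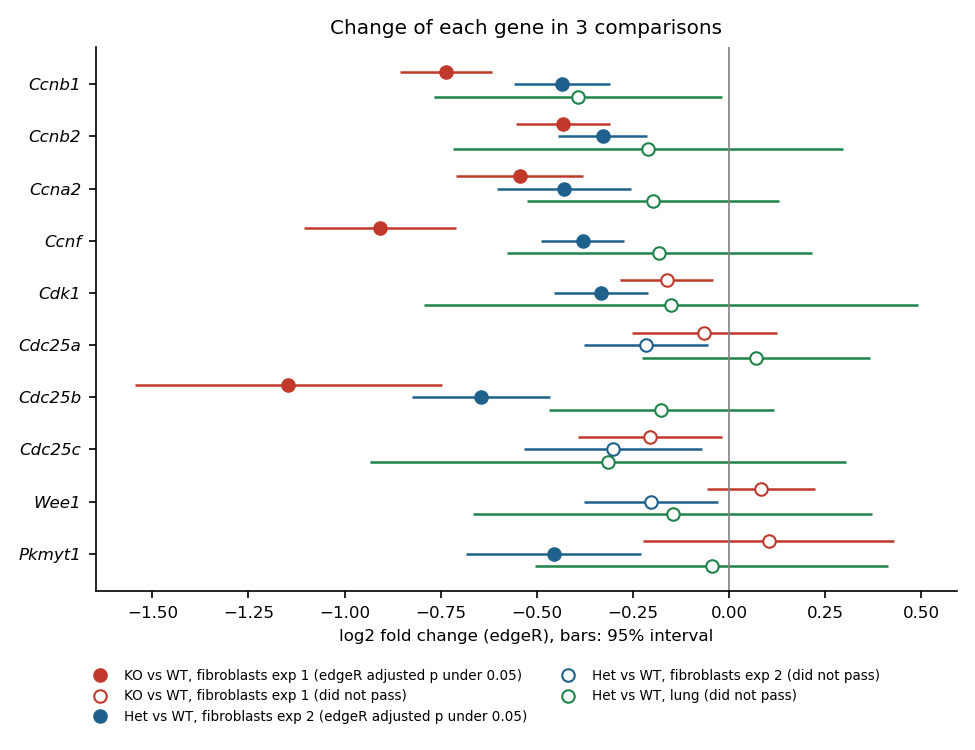
Log2 fold change of each gene (horizontal axis, edgeR, bars 95% interval) in KO against WT and Het against WT fibroblasts and Het against WT lung; filled points passed an adjusted p under 0.05 and open points did not. Cdc25b has the lowest value in both fibroblast comparisons (-1.15 and -0.64), Wee1 and Pkmyt1 lie above 0 in KO and below 0 in Het, and the lung interval includes 0 for every gene but Ccnb1.

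Set against fibroblasts, the lung held less of all 10 RNAs. Between WT lung and WT fibroblasts of experiment 2, 10 of 10 genes were lower, where 34.1% of all genes were called lower and 41.5% higher. Tissue and preparation cannot be told apart here. The log2 differences were -3.71 for Ccnb1, -3.34 for Cdc25c, -3.03 for Ccnf, -2.90 for Ccna2, -2.60 for Cdk1 and -2.32 for Ccnb2 (edgeR adjusted p between 5.24e-10 and 7.96e-07). The other 4 regulators had log2 differences nearer to 0 than Cdc25c, with -1.78 for Pkmyt1, -1.56 for Cdc25a, -1.16 for Wee1 and -0.71 for Cdc25b (edgeR adjusted p between 8.39e-08 and 6.73e-05). The median of all genes was 0.14 in this comparison, and 0.19 with another scaling of the libraries. By CPM per kb, Ccnb1 ranked 3 of the 10 in WT fibroblasts of experiment 1 and 2 in those of experiment 2, and it ranked 6 in WT lung, at 3.13 ± 0.12.

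Cdc25b was the second most abundant of the 10 in lung, at 9.86 ± 0.997 CPM per kb after Ccnb2 at 10.7 ± 1.77, and the libraries of these 2 genes overlapped. Its level in WT lung was close to that of Het fibroblasts, at 10.2 ± 0.394. The overlapping Spef1 was 2.66 higher on the log2 scale in lung than in fibroblasts, and the share of its reads in the Cdc25b count was not tested. Paqr4, which overlaps Pkmyt1, was also higher (edgeR adjusted p = 6.77e-08), and Exosc9, which overlaps Ccna2, had a log2 difference of -0.96. All 23 genes of mitotic entry and exit, 22 of 23 of proliferation and G1/S, 18 of 22 upstream of Cdc25 and Wee1 and 19 of 28 in degradation were lower in lung. In the other lists, 12 of 17 cyclins and partners, 15 of 21 FoxM1, B-Myb and MuvB genes and 6 of 11 Greatwall and phosphatase genes were lower.

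The balance between genes within a library does not depend on scaling. These ratios of counts were chosen after the values were seen, and gene length keeps them from being ratios of molecules, so they are given only between libraries and without a test. Ccnb1 counts per Cdk1 count were 1.06, 1.12 and 1.09 in WT of experiment 1 and 0.748, 0.715 and 0.742 in KO. KO-NTD held 0.763, 0.722 and 0.7, which overlap those of KO. In experiment 2 the ratio was 0.933, 0.987 and 0.989 in WT and 0.929, 0.906 and 0.881 in Het, so the groups lay close together. Relative to its kinase, cyclin B1 RNA was thus lower in every KO and KO-NTD library than in any WT library of experiment 1. In experiment 2 the lowest WT library, at 0.933, stood next to the highest Het library, at 0.929. With NTD the ratio was 1.01, 0.988 and 0.987 in WT-NTD and 0.935, 0.932 and 0.898 in Het-NTD, without overlap.

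Cdc25b counts per Wee1 count set an activator of Cdk1 against an inhibitor. They were 1.42, 1.27 and 1.38 in WT of experiment 1, 0.437, 0.666 and 0.614 in KO and 0.459, 0.448 and 0.488 in KO-NTD. In experiment 2 they were 1.85, 2 and 1.92 in WT and 1.43, 1.48 and 1.34 in Het. With NTD they were 1.88, 2.06 and 1.94 in WT-NTD and 1.42, 1.19 and 1.28 in Het-NTD. The ratio was lower without overlap in the KO, KO-NTD, Het and Het-NTD groups than in the matching WT or WT-NTD group. As this pair was chosen after the values were seen, that separation only restates the changes of the 2 genes given above. In lung the ratio was 2.26, 2.65 and 3.18 in WT and 3.02, 2.71 and 2.23 in Het, which overlap.

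Across the 21 fibroblast libraries, with each gene centred within its experiment, the cyclins and Cdc25b varied most like Ccnb1. The libraries share label and culture with others of their group and are not independent points, so these correlations are a description. Pearson's r with Ccnb1 was 0.953 for Ccnf, 0.951 for Ccna2, 0.948 for Ccnb2, 0.936 for Cdc25b and 0.831 for Cdk1. It was 0.749 for Cdc25c, 0.403 for Cdc25a, 0.302 for Pkmyt1 and 0.0398 for Wee1. Among 12336 other expressed genes the pattern most like that of Ccnb1 was that of Kif2c, a kinesin that depolymerises microtubules (r = 0.983), and the mitotic spindle gene Dlgap5 (0.981). For Ccnf it was Nek2 (0.977), for Cdc25b Hp1bp3 (0.967), for Cdk1 Ube2c (0.947) and for Ccna2 and Ccnb2 the cohesin subunit Rad21 (0.974 and 0.972). The best matches were weaker for Cdc25a (Traf3, 0.898), Cdc25c (Kif18a, 0.894), Pkmyt1 (Rnps1, 0.854) and Wee1 (Ska3, 0.799).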

How the data were processed

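Per the labels' protocols, about 200 ng of RNA from each of 27 samples went into TruSeq libraries. This kit does not mark strand. Raw counts per gene symbol were deposited by the authors as 1 table. TopHat2 2.0.14, Bowtie2 2.2.6, featureCounts 1.4.6 and build mm10 are named per the submitters' processing notes; annotation and strand setting are not given in the sources used here. From these counts, each fibroblast experiment and the lungs were fitted apart in edgeR 4.0.16 (R 4.3.3; filterByExpr, TMM, robust quasi-likelihood F test, two-sided, Benjamini-Hochberg over all genes tested, threshold 0.05), and tissues or experiments were contrasted in joint fits of 12 libraries. CPM are per fit. Levels per kb use merged GENCODE M21 exons. Residual degrees of freedom were 6, 8 and 4 for experiment 1, experiment 2 and lung.

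Alternatives were DESeq2 1.42.0, other size factors, no filter, the replicate number as a block, only the groups compared, a macrophage score and each library left out. No library repeats another: even the closest pair of a group had a chi-square of 5.88 per degree of freedom. The fits were tested on simulated data. An exact permutation test of 3 against 3 cannot go below p = 0.1 and was not used. The 10 genes, gene lists and marker lists were chosen with earlier results of these data known. The text names all 10 genes, Foxm1, up to 3 called genes per list and comparison with the lowest p, and the genes with the highest correlation. Genes that share exon bases with a described gene were added for that reason. Claspn, Adgre1 and Ly6g were not analysed here. Sequences are from RefSeq (GRCm38.p6).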

Additional observations from a re-analysis of the deposited data

How the results depend on the processing

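No called log2 change of the 10 genes reversed under any alternative run: over all comparisons 1468 alternative values stayed on their side of the threshold, 58 of them uncalled values that took the other sign, 42 no longer passed and 20 newly passed. Same-numbered libraries did not consistently deviate together. Correlations of deviations were -0.483 to 0.608 with the same number and -0.712 to 0.634 with different numbers in experiment 1. In experiment 2 they were -0.209 to 0.446 and -0.383 to 0.263, and in lung -0.338 to 0.12 and -0.232 to 0.364. The 0.446 was between library 2 of WT and library 2 of WT-NTD, and partial pairing there was not tested. With the replicate block 4 of the 10 genes were called in KO against WT, where 0.357% of all genes were called in either direction. The block gave 8 in Het against WT, where 17.9% of all genes were called. It gave 6 in Het-NTD against WT-NTD, where 11.7% were called. Counts that moved by over 1.5 times were 2 with only the groups compared for KO against WT, 2 with the macrophage score for Het-NTD against WT-NTD, 1 with DESeq2 for the Het effect in lung minus that in fibroblasts, and 3 with DESeq2 and 1 without a filter for the KO effect minus the Het effect. Leaving out each library gave 2 to 5 for KO against WT, 0 to 1 for KO-NTD against KO, 2 to 4 for KO-NTD against WT, 3 to 7 for Het-NTD against WT-NTD and 0 to 5 for the KO effect minus the Het effect. For those runs the shares of all genes called are not given here. Over all genes, the counts called higher and lower in KO against WT were 18 and 47, against 237 and 242 with DESeq2, 228 and 214 with the macrophage score and 10 and 26 with only the groups compared. In KO-NTD against WT they were 9 and 55, against 146 and 255 with DESeq2, 89 and 174 with the macrophage score and 23 and 77 with only the groups compared. In Het against WT they were 1130 and 1232, against 213 and 179 with the macrophage score and 617 and 772 with only the groups compared, and in Het-NTD against WT-NTD 750 and 893, against 88 and 82 with the macrophage score. For the Het effect in lung minus that in fibroblasts they were 133 and 51, against 512 and 222 with DESeq2 and 27 and 12 with the replicate block. For the KO effect minus the Het effect they were 22 and 25, against 447 and 280 with DESeq2 and 1 and 1 with the replicate block. Against KO, KO-NTD had 1 and 0, against 9 and 18 with DESeq2. Against Het, Het-NTD had 1 and 1, against 6 and 17 with DESeq2 and 6 and 14 with only the groups compared. Against WT, WT-NTD had 2 and 0, against 6 and 22 with DESeq2 and 2 and 2 with the replicate block. The causes were not tested. In lung, where intervals were wide, Cdc25c rested on as few as 59 reads.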
